A study of Mus musculus with 105 samples.

Results

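Poly(A) tail lengths were measured in metaphase II (MII) mouse oocytes that lack Btg4, in MII oocytes heterozygous for Btg4 (Het) and in wild-type (WT) MII oocytes. Genes were taken when the deposited tail table gave a length in both knockout (KO) libraries and in at least 1 of the Het and WT libraries, which left 295 of the 6443 genes with a tail in any oocyte library. A further 341 genes had a tail in both KO libraries and in neither the Het nor the WT library, so that 636 genes had both KO values. Values in all 4 MII libraries were given for 131 genes.

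BTG4 is an adaptor that brings the CCR4-NOT deadenylase to maternal mRNAs when the oocyte matures. A growing oocyte stores mRNA that it later has to translate or destroy, without new transcription. During maturation the tails of some stored mRNAs are lengthened in the cytoplasm, which goes with their translation, while the tails of many others are trimmed before the mRNA is degraded.

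The study examined ribosome footprints and RNA in oocytes and early embryos, and the samples used here are a small share of it. The tail libraries were MII Btg4 KO (2 libraries), MII Btg4 Het (1 library), MII WT (1 library) and full-grown WT oocytes labelled SN (FGO, 1 library). Smart-seq2 mRNA of Btg4 KO and Het MII oocytes (2 libraries each) and their ribosome footprints (3 libraries each) were used as further readouts, from separate libraries. The mRNA libraries were of polyadenylated RNA, so their levels may depend on tail length, which was not tested. All oocytes came from C57BL/6 females, 8 or 5 weeks old, that had received PMSG (5 IU) and hCG (5 IU). The part of Btg4 that was removed, the age within each group and the number of oocytes or animals per library are not stated in the sources used here. Because no separate animals are named, a p-value here reflects the spread among these libraries alone, and that spread may be technical. Het and WT each rest on 1 library and differ in genotype, so each was compared with KO on its own, and they were pooled only in an alternative fit of the tails.

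Btg4 itself was still listed with a tail in the KO libraries, at 53.0 and 101 nt, against 72.1 nt in Het and 36.9 nt in WT. Its mRNA measured 1754 and 2345 FPKM in KO and 3293 and 4774 FPKM in Het, a log2 difference of -0.97 ± 0.35 (SE) that missed the threshold of 0.05 (limma, adjusted p = 0.0889 over all genes tested). Log2 differences are KO minus Het of log2(FPKM + 1), where FPKM is a read level per transcript length and library total, and they understate the change of low genes. Footprints on Btg4 fell to 1148, 971 and 907 FPKM in KO, against 7009, 6346 and 6134 FPKM in Het, with no overlap (log2 difference -2.69 ± 0.24, limma adjusted p = 0.00654). Reads outside the deleted part would still be counted, so the mRNA and tail values do not check the deletion. Of 16 oocyte markers, 13 had tails in both KO libraries. None of the 22 follicle cell markers or the listed blood markers did, and the summed mRNA of the follicle markers was 269 to 310 FPKM in KO and 359 to 443 FPKM in Het. In footprints these markers summed to 488 to 565 FPKM in KO and 244 to 421 FPKM in Het, so that they were lower in KO in the first readout and higher in the second, without overlap in either. Only 3 of them averaged 1 FPKM or more in mRNA and 6 in footprints, and Amh, Amhr2 and Foxl2 were at 0 in every library; the part of these cells in the results was not tested. FPKM are relative to each library's total and no spike-in is named, so fewer oocytes and less RNA per oocyte cannot be told apart.

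The libraries differed in how many genes had a tail at all. Tails were given for 867 and 1416 genes in the KO libraries, 598 in Het, 229 in WT and 6353 in FGO, and the median over these genes was 42.4, 43.1, 73.4, 47.5 and 54.1 nt in the same order. These medians are over different genes. Over the 131 genes with values in all 4 MII libraries, the medians were 56.8 and 57.6 nt in KO, 64.4 nt in Het and 45.1 nt in WT, and 57.1 nt in FGO for the 129 of them listed there. The KO libraries were therefore close to each other and lay between the controls.

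**Figure D1:**
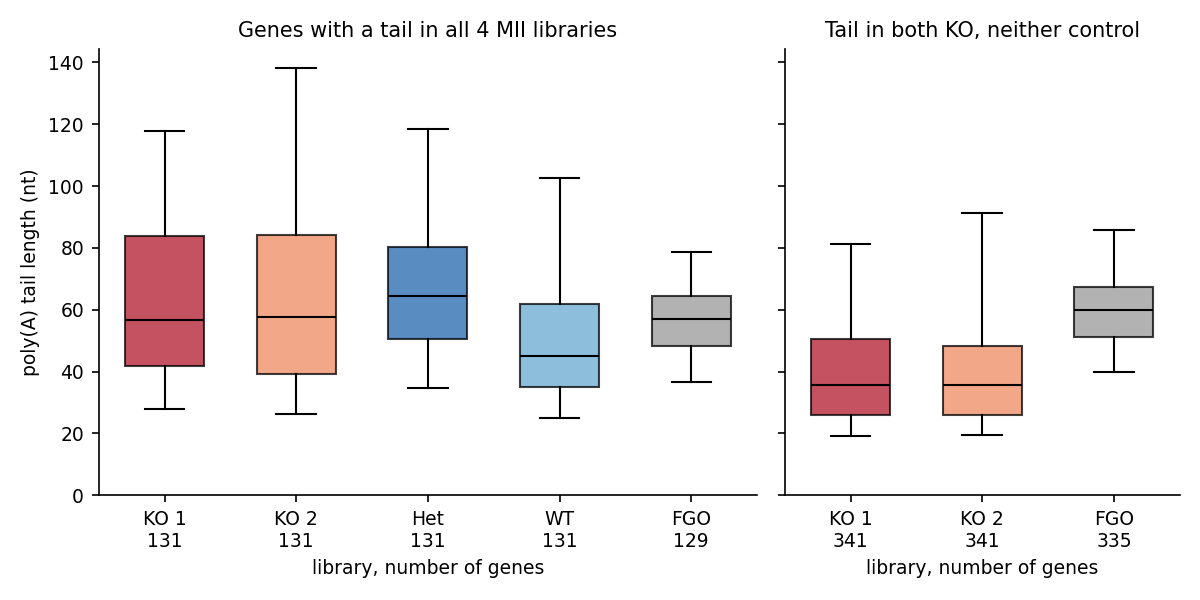
Tail length (nt) by library, for the 131 genes with values in all 4 MII libraries (left) and for the 341 genes with a tail in both KO libraries and neither control (right), with the number of genes under each library. Boxes span the quartiles with the median as a line and whiskers run from percentile 5 to 95; on the left the Het median, 64.4 nt, is the highest and the WT median, 45.1 nt, the lowest, and on the right both KO medians, 35.5 nt, lie under the FGO median of 59.9 nt.

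Gene by gene, the KO libraries differed by a median of 0.09 nt over 636 genes, with quartiles of -10.4 and 9.85 nt, and their tails correlated across genes with a Spearman rho of 0.687. This correlation is across genes and describes the pair. For 33 of the 636 genes the KO libraries differed by over 50 nt. The mean KO tail minus the Het tail had a median of -9.21 nt over 272 genes, with quartiles of -27.4 and 10.9 nt, and 108 genes were longer and 164 shorter in KO. Over the 131 genes with all values this median was -3.70 nt. The mean KO tail minus the WT tail had a median of 8.96 nt over 154 genes, with quartiles of -7.88 and 28.7 nt, and 98 genes were longer and 56 shorter in KO. The direction of the typical difference thus depended on which control was used. Het tails exceeded WT tails by a median of 14.9 nt over 170 genes, and this difference between the controls was larger than either difference involving KO. The mean KO tail lay between the controls for 39 of the 131 genes.

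No single gene's tail difference passed the threshold. In limma's fit of tail length, 0 of 272 genes were called against Het and 0 of 154 against WT (0.0% in each direction), and the lowest adjusted p was 0.249 and 0.300. At an unadjusted p below 0.05, limma gave 3 longer and 48 shorter genes in KO against Het, and 8 longer and 9 shorter genes against WT. The only spread this fit has comes from the KO pair (1 residual degree of freedom before limma's shrinkage), and the median standard error of a difference was 15.6 nt against Het and 14.1 nt against WT. With 2 libraries against 2, an exact permutation test cannot go below p = 0.333. What follows on tails is therefore given as values and counts.

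In 37 of the 131 genes (28.2%) both KO tails were longer than both the Het and the WT tail, and in 31 genes (23.7%) both were shorter. The remaining 63 overlapped the controls. Shifting each library to a common median gave 35 longer and 37 shorter genes, of which 28 and 26 were also in the counts as deposited. The margin was small for some: Arl6ip1 (61.4 and 35.5 nt in KO, 34.7 nt in Het, 23.3 nt in WT) and Zbed3 (82.2 and 84.8 nt in KO, 81.1 nt in Het, 68.5 nt in WT) lay just inside the longer group. Eif5a (68.9 and 71.3 nt in KO, 68.9 nt in Het, 32.0 nt in WT) and Uba1 (42.9 and 34.7 nt in KO, 35.4 nt in Het, 29.2 nt in WT) lay just outside it. On the other side Ninj1 (30.5 and 31.5 nt in KO, 83.8 nt in Het, 32.0 nt in WT) and Fbxw24 (34.4 and 29.7 nt in KO, 35.2 nt in Het, 54.7 nt in WT) lay just inside, and Psmd9 and Laptm4b overlapped by 0.08 and 0.90 nt. A gap of at least 10 nt between the KO and the control libraries held for 24 longer and 15 shorter genes.

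The 15 genes whose KO tails lay furthest above both controls covered mRNA regulation, chromatin and oocyte-specific genes. Gm1070 had the widest gap, with 187 and 182 nt in KO against 117 nt in Het and 64.5 nt in WT. Parp12, a mono-ADP-ribosyltransferase, had 113 and 112 nt in KO against 68.9 nt in Het and 46.9 nt in WT. In both genes the KO values were nearly equal and the controls were well apart from each other. H3f3b, which encodes the replication-independent histone H3.3, had 118 and 88.7 nt in KO against 47.7 nt in Het and 48.0 nt in WT. A related gene encodes the same protein, and how the authors assigned reads between near-identical copies is not known. Ezh2, the methyltransferase of Polycomb complex PRC2, had 112 and 105 nt in KO against 77.6 nt in Het and 87.7 nt in WT.

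Several of these 15 genes act on mRNA or on transcription. Eif4enif1 (4E-T), a partner of the cap-binding protein eIF4E that represses stored maternal mRNAs, had 69.2 and 56.9 nt in KO against 28.2 nt in Het and 24.3 nt in WT. Its footprints measured 47.9, 70.6 and 67.5 FPKM in KO and 11.2, 17.1 and 24.6 FPKM in Het, without overlap, and did not pass the threshold (log2 difference 1.80 ± 0.45, limma adjusted p = 0.0918). Pcbp1, a poly(rC)-binding protein, had 130 and 98.9 nt in KO against 67.6 nt in Het and 37.1 nt in WT. Rae1, an mRNA export factor, had 130 and 76.2 nt in KO against 45.8 nt in Het and 51.8 nt in WT, so that its KO libraries differed from each other by more than its controls did. Gtf2b, the general transcription factor TFIIB, had 84.6 and 56.3 nt in KO against 35.8 nt in Het and 38.2 nt in WT. It was the only one of the 15 whose footprints passed the threshold, with 1076, 1373 and 1175 FPKM in KO against 420, 282 and 291 FPKM in Het (log2 difference 1.88 ± 0.29, limma adjusted p = 0.0241). The call was lost without Het library 2 or 3 and without any 1 KO library.

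The others of the 15 were of mixed function. Mat2b, the regulatory subunit of methionine adenosyltransferase, had 92.6 and 159 nt in KO against 66.3 nt in Het and 33.8 nt in WT. Trim61, a member of the TRIM family, had 112 and 110 nt in KO against 75.7 nt in Het and 51.4 nt in WT. Akirin2, which takes part in the nuclear import of proteasomes, had 86.5 and 97.3 nt in KO against 62.9 nt in Het and 52.7 nt in WT. All 3 were clear of both controls by over 20 nt. Oosp1, an oocyte-secreted protein, had 97.2 and 128 nt in KO against 73.5 nt in Het and 76.7 nt in WT. Ddhd1, a phospholipase, had 63.4 and 71.2 nt in KO against 33.3 nt in Het and 41.9 nt in WT. Mgst3, a membrane-bound glutathione transferase, had 89.3 and 89.7 nt in KO against 71.1 nt in Het and 52.0 nt in WT, and was the only gene of the 15 with both KO tails under the FGO value, here 104 nt. C86187 had 99.6 and 88.4 nt in KO against 66.1 nt in Het and 51.9 nt in WT, belongs to a family of near-identical genes and was not matched to the FPKM tables.

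Among the 31 genes with shorter KO tails, the 8 furthest from the controls included DNA methylation and chromatin regulators. Tet3, the oxidase of 5-methylcytosine in the zygote, had 76.8 and 61.0 nt in KO against 106 nt in Het and 149 nt in WT. Dnmt1, the maintenance DNA methyltransferase, had 32.4 and 50.5 nt in KO against 69.3 nt in Het and 161 nt in WT. Arid1a, a subunit of the BAF chromatin remodeller, had 30.3 and 48.5 nt in KO against 75.3 nt in Het and 192 nt in WT. For these 3 genes the WT value was the highest of the 4 libraries, and the gap between KO and Het alone was 29.7, 18.8 and 26.8 nt.

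Edc4, a scaffold of the decapping complex, had 48.2 and 49.1 nt in KO against 74.7 nt in Het and 70.2 nt in WT. Usp19, a deubiquitinase, had 59.7 and 70.4 nt in KO against 95.1 nt in Het and 112 nt in WT. Ldhb, a lactate dehydrogenase subunit, had 21.1 and 23.0 nt in KO against 49.4 nt in Het and 38.2 nt in WT. In Edc4 the values within each pair were close and the pairs were far apart, while in Ldhb the controls also differed from each other. Pfn1, the actin-binding protein profilin, had 30.3 and 33.4 nt in KO against 59.5 nt in Het and 48.5 nt in WT, and its mRNA rose to 326 and 476 FPKM in KO, against 92.0 and 173 FPKM in Het (log2 difference 1.63 ± 0.38, limma adjusted p = 0.0194). That call was lost without KO library 2. Nlrp9a, from a family of similar oocyte genes, had 40.4 and 38.9 nt in KO against 55.7 nt in Het and 55.3 nt in WT.

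**Figure D2:**
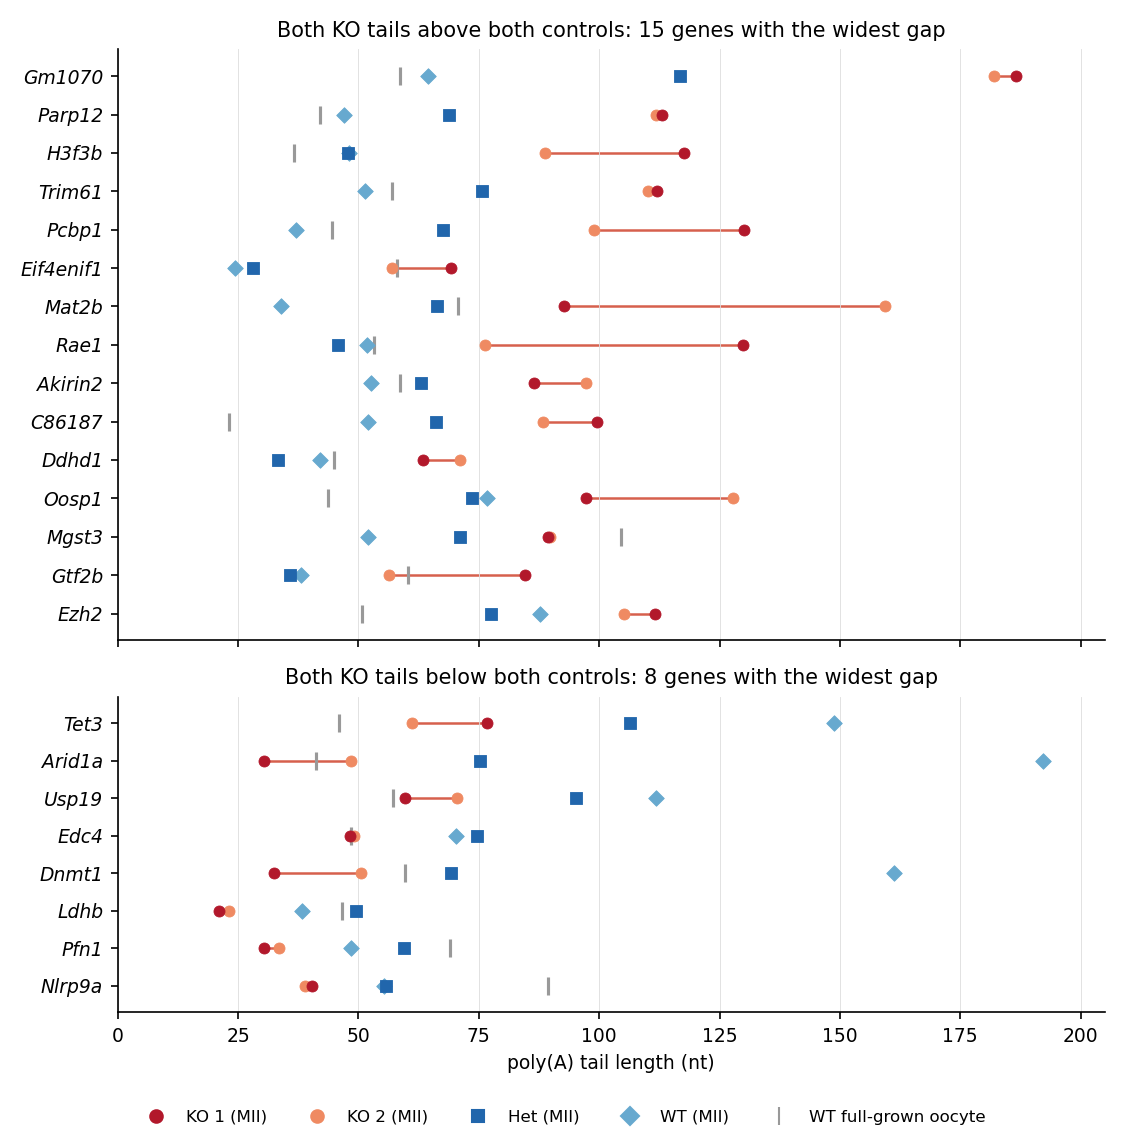
Tail length (nt) of the 15 genes furthest above (top) and the 8 furthest below (bottom) both controls; each symbol is 1 library (KO 1, KO 2, Het, WT, and a tick for WT full-grown oocytes), and a line joins the KO libraries. In the top panel both KO symbols lie right of the Het and WT symbols for every gene, and in the bottom panel left of them.

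The KO tails of both groups were set beside those of the full-grown oocyte. Both KO tails exceeded the FGO tail in 25 of the 37 longer genes, with a median KO minus FGO difference of 28.3 nt. Both KO tails were below the FGO tail in 23 of the 30 shorter genes that FGO listed, with a median of -21.3 nt. The FGO tails of the groups had medians of 54.5 nt (longer) and 58.5 nt (shorter). Because the groups were chosen by their KO tails, the opposite signs follow from the choice, and they are a description.

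The mRNA and footprint readouts were read for the same groups. In mRNA, limma called 1677 of 8865 genes higher in KO (18.9%) and 55 lower (0.62%). In footprints it called 274 of 8526 genes higher (3.21%) and 28 lower (0.328%). Quantile normalization, which moved the median log2 difference of all genes in mRNA to -0.22, against 0.14 with the FPKM as deposited, gave 1104 higher and 698 lower mRNAs. These fits did not pair KO and Het libraries. With the replicate number that they share as a block, 3033 mRNAs were higher and 1553 lower. Without any 1 of the 3 KO footprint libraries limma called 0 footprint changes (adjusted), while 879 to 970 genes were higher and 242 to 345 lower at an unadjusted p below 0.05. Every footprint call named here was lost in those 3 settings. Of these, only the calls of Btg4, Pfdn4, Paip2, Ssb and Psma7 held without each Het footprint library in turn.

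Of the 35 tested genes with longer KO tails, 1 rose and 0 fell in mRNA and the median log2 difference was -0.44. These counts, and those of the shorter group below, come from the fit without pairing. With the replicate number as a block, 76 rose and 74 fell in mRNA among the 288 tested genes with a control tail, which include both groups. In footprints 3 of the 35 genes with longer KO tails rose and 2 fell, and the median was 0.36. Those that rose were Gtf2b, Bmp15 and Pfdn4. Bmp15, an oocyte growth factor that acts on the follicle, had KO tails of 58.1 and 44.5 nt against 33.8 nt in Het and 31.2 nt in WT. Its footprints rose to 494, 288 and 533 FPKM in KO, against 81.4, 40.6 and 83.1 FPKM in Het (log2 difference 2.68 ± 0.43, limma adjusted p = 0.0269), while its mRNA measured 1764 and 1414 FPKM in KO and 1361 and 1323 FPKM in Het. Pfdn4, a prefoldin subunit, had 107 and 152 nt in KO against 105 nt in Het and 32.0 nt in WT, with footprints higher by 2.10 ± 0.24 on the log2 scale (limma adjusted p = 0.0136). Zbed3 and Ermp1 fell in footprints by 1.84 and 1.61 on the log2 scale (limma adjusted p = 0.0494 and 0.0481). Footprint libraries of the same number deviated together, and with that number as a block the 2 adjusted p-values were 0.0555 and 0.0531.

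Of the 30 tested genes with shorter KO tails, 3 rose and 0 fell in mRNA, with a median log2 difference of 0.20. In footprints 0 rose and 1 fell, with a median of -0.59. The footprint median was also below 0 in other genes with a control tail, at -0.37 in those that overlapped the controls and -0.34 in those with 1 control, against 0.27 over all genes tested. The gene that fell was Uchl1, a ubiquitin hydrolase abundant in oocytes. Its tails were 24.5 and 24.4 nt in KO against 32.4 nt in Het and 33.5 nt in WT. Its mRNA rose to 1143 and 995 FPKM in KO, against 455 and 241 FPKM in Het (log2 difference 1.68 ± 0.36, limma adjusted p = 0.0143). Its footprints fell to 507, 542 and 378 FPKM in KO, against 1582, 2656 and 1586 FPKM in Het (SE of the log2 difference 0.32, limma adjusted p = 0.0269). The groups overlapped in neither readout, and the directions were opposite. The footprint call of Uchl1 was also lost without Het library 2 or 3.

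Genes with a tail in both KO libraries and in neither control were the larger set, 341 of 636 (53.6%). Whether a gene has a value depends on how many of its molecules were read, which the table does not give, and with only 1 of the KO libraries required the number was 531 to 988. Their KO tails were short, with medians of 35.5 and 35.5 nt, against 50.2 and 53.1 nt for the 295 genes also listed in a control. A mean KO tail under 40 nt was seen in 196 of the 341 and in 88 of the 295 genes. In FGO, 335 of the 341 had a tail, with a median of 59.9 nt. Both KO tails were below FGO in 238 of these and above it in 50, and the median difference was -23.2 nt. Over all 626 genes with both KO tails and an FGO tail, both were below FGO in 375 and above it in 157, with a median difference of -15.4 nt.

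The mRNA values of this set are tied to how it was chosen, since a gene with more mRNA in KO than in the controls may be listed in KO alone for that reason. The counts that follow describe the set and support no difference from other genes. Of 335 tested, 144 rose (43.0%) and 0 fell, against 18.9% of all genes tested and 22.4% of those averaging 10 FPKM or more. At an unadjusted p below 0.05 limma gave 180 higher and 2 lower. Their median log2 difference was 0.99, and it exceeded that of all genes by 0.85, or by 0.91 after quantile normalization. Of the 288 tested genes also listed in a control, 30 rose (10.4%) and 0 fell, with 53 higher and 21 lower at an unadjusted p below 0.05. Their median was -0.01, which is 0.15 below that of all genes and level with it after quantile normalization. For these 288 genes quantile normalization gave 27 that rose and 5 that fell, and leaving out Het library 2 gave 28 that fell. With the replicate number as a block, 76 of them rose and 74 fell. The same block gave 223 that rose and 14 that fell among genes listed in KO alone. In footprints, 20 of 322 genes listed in KO alone rose (6.21%) and 3 fell, against 3.21% and 0.328% of all genes (5.38% rose among genes averaging 10 FPKM or more), and 63 were higher and 35 lower at an unadjusted p below 0.05. Among the 288, 14 rose and 8 fell in footprints, with 42 higher and 50 lower at an unadjusted p below 0.05, a median of -0.29 and 108 above 0. Of the 20 genes listed in KO alone that rose in footprints, 13 had also risen in mRNA.

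**Figure D3:**
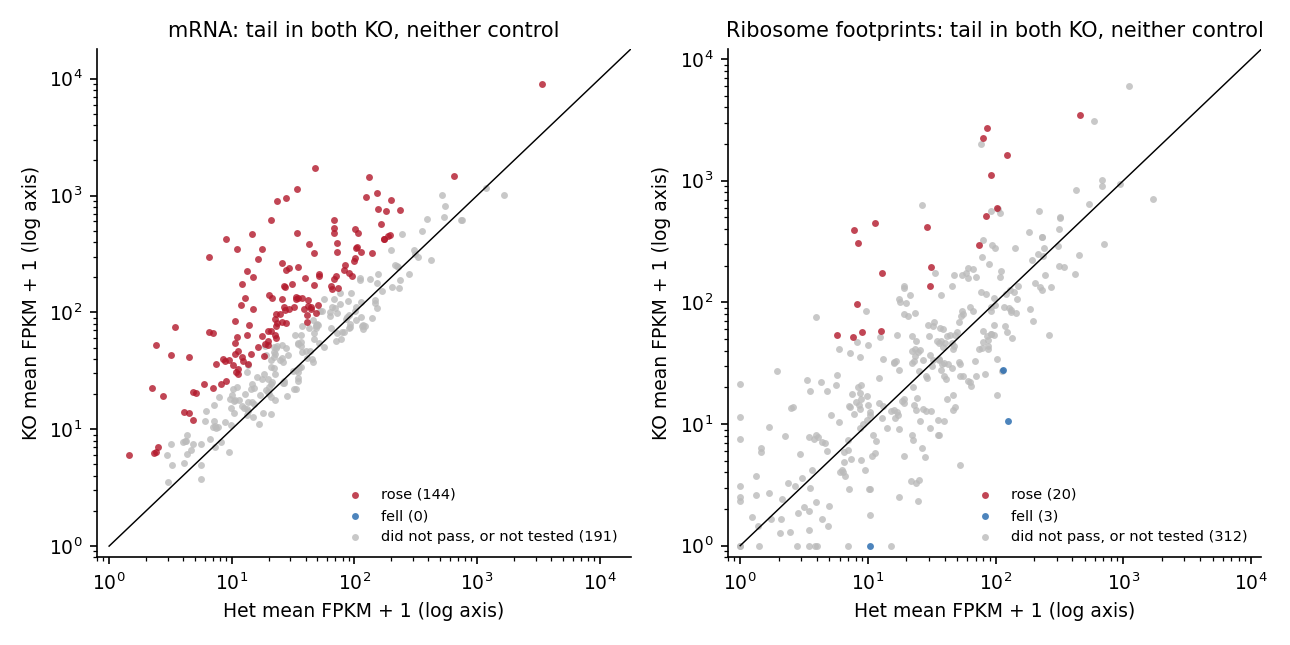
Mean level in KO (vertical) against Het (horizontal), as FPKM + 1 on log axes, of genes with a tail in both KO libraries and neither control, for mRNA (left) and footprints (right); each point is 1 gene, coloured by its limma call, and the line marks equal levels. In mRNA 144 genes rose and 0 fell, and in footprints 20 rose and 3 fell; the genes were chosen for being listed in KO and in neither control, which can favour genes with more mRNA in KO.

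The 5 genes with the shortest KO tails in this set were Eif6, Zar1l, Tdrd12, Gm813 and Camsap3, all with mean KO tails of 17.2 to 18.6 nt, and 4 of the 5 rose in mRNA. Eif6, which keeps ribosomal subunits apart, had 15.5 and 18.9 nt in KO and 50.6 nt in FGO. Its mRNA rose to 75.7 and 96.9 FPKM in KO, against 23.6 and 19.8 FPKM in Het (log2 difference 1.94 ± 0.31, limma adjusted p = 0.00413). Its footprints fell to 17.1, 6.05 and 5.81 FPKM in KO, against 87.3, 130 and 158 FPKM in Het (log2 difference -3.68 ± 0.54, limma adjusted p = 0.0217). Eif6 thus changed in opposite directions, with no overlap in either readout. Its footprint call was also lost without Het library 2 or 3. Nudc, a dynein-associated protein, also differed in opposite directions, with KO tails of 19.7 and 19.8 nt, mRNA higher by 3.03 ± 0.31 (limma adjusted p = 0.000873) and footprints lower at -2.09 ± 0.42 (limma adjusted p = 0.0483). The footprint call of Nudc was lost without any 1 footprint library. The third gene of the set with fewer footprints was Lsp1, listed at 0 in all 3 KO footprint libraries and at 9.88, 9.71 and 8.47 FPKM in Het. It passed limma's threshold (adjusted p = 0.0315) but not with the replicate number as a block (0.0690).

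Zar1l, a paralogue of the maternal-effect gene Zar1, had 16.6 and 18.8 nt in KO and 61.2 nt in FGO. Its mRNA rose to 318 and 375 FPKM in KO, against 20.2 and 13.4 FPKM in Het (log2 difference 4.31 ± 0.32, limma adjusted p = 0.000283). Its footprints stayed under 14 FPKM in every library of both genotypes. Tdrd12, a Tudor-domain protein of the piRNA pathway, had 16.5 and 19.5 nt in KO and mRNA higher by 1.13 ± 0.29 (limma adjusted p = 0.0265), a call lost without either KO library or without Het library 2. Gm813 had 16.9 and 20.1 nt in KO and 93.1 nt in FGO, with mRNA of 650 and 1279 FPKM in KO against 78.1 and 167 FPKM in Het (limma adjusted p = 0.00336).

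The 10 genes with the longest KO tails in this set had mean KO tails of 88.8 to 172 nt, and 5 rose in mRNA and 4 in footprints. Paip2, a repressor that binds the cytoplasmic poly(A)-binding protein, had 123 and 93.7 nt in KO and 60.0 nt in FGO. Its mRNA rose to 552 and 690 FPKM in KO, against 26.2 and 13.7 FPKM in Het (log2 difference 4.95 ± 0.37, limma adjusted p = 0.000283). Its footprints rose to 2060, 2951 and 1738 FPKM in KO, against 118, 43.4 and 75.7 FPKM in Het (log2 difference 4.89 ± 0.44, limma adjusted p = 0.00654). Both readouts of Paip2 rose by about the same amount. Ssb, the La RNA-binding protein, had 95.6 and 101 nt in KO and 51.1 nt in FGO. Its mRNA overlapped, with 548 and 766 FPKM in KO and 510 and 562 FPKM in Het (limma adjusted p = 0.557), while its footprints rose to 2083, 4001 and 2090 FPKM in KO, against 92.3, 80.9 and 79.9 FPKM in Het (log2 difference 4.93 ± 0.35, limma adjusted p = 0.00654). For Ssb the footprints rose with no mRNA change that passed the threshold.

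Eef1e1, a component of the multi-tRNA-synthetase complex, had 76.9 and 134 nt in KO and 28.5 nt in FGO. Its mRNA rose (log2 difference 3.19 ± 0.33, limma adjusted p = 0.000873), and its footprints measured 256, 503 and 420 FPKM in KO and were listed at 0, 0 and 20.2 FPKM in Het (limma adjusted p = 0.0299). Ccdc115, an assembly factor of the proton pump V-ATPase, had 247 and 97.6 nt in KO, so that the library values were far apart. Its mRNA rose (log2 difference 2.30 ± 0.30, limma adjusted p = 0.00180), and its footprints measured 377, 252 and 284 FPKM in KO and were listed at 22.3, 0 and 0 FPKM in Het (limma adjusted p = 0.0360). The footprint calls of Eef1e1 and Ccdc115 were also lost with a pseudocount of 0.1. Polr2d, a subunit of RNA polymerase II, had 130 and 140 nt in KO and 46.7 nt in FGO, and its mRNA rose to 739 and 1087 FPKM in KO, against 124 and 273 FPKM in Het (limma adjusted p = 0.00741). Lsm3, a subunit of the Lsm ring of mRNA decay and splicing, had 95.2 and 82.5 nt in KO and rose in mRNA (log2 difference 2.22 ± 0.52, limma adjusted p = 0.0193). Cdc42bpb, Tfe3, Gatad2b and Ptk2 passed neither test. Polr2d, Lsm3, Cdc42bpb, Gatad2b and Ptk2 had a value in the merged control column of the authors' deposited table.

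The 10 most abundant mRNAs of the set in KO were Elobl, E330017A01Rik, Fbxw19, Eloc, Psma7, Dppa5a, Fbxw15, Gm10436, Hsp90aa1 and Gm813. They were picked by the KO mRNA level, so their mRNA differences are a description. Fbxw19 and Gm10436 had a value in the authors' merged control column, at 55.6 and 21.2 nt, against merged KO values of 50.0 and 37.5 nt. Dppa5a, a KH-domain protein of pluripotent cells and oocytes, had 35.8 and 27.0 nt in KO and 63.0 nt in FGO. Its mRNA rose to 1168 and 1116 FPKM in KO, against 35.6 and 30.1 FPKM in Het (log2 difference 5.08 ± 0.29, limma adjusted p = 0.000173). Its footprints overlapped, with 149, 10.5 and 106 FPKM in KO and 275, 0 and 105 FPKM in Het (limma adjusted p = 0.868). Eloc, the ubiquitin ligase adaptor elongin C, had 39.5 and 46.5 nt in KO and rose in mRNA (log2 difference 3.49 ± 0.39, limma adjusted p = 0.000970) and in footprints (3.22 ± 0.64, limma adjusted p = 0.0479). Psma7, a proteasome subunit, had 67.4 and 81.9 nt in KO. Its mRNA overlapped at 1084 and 1251 FPKM in KO and 1154 and 1203 FPKM in Het, while its footprints rose to 436, 475 and 341 FPKM in KO, against 29.5, 14.9 and 38.9 FPKM in Het (log2 difference 3.95 ± 0.44, limma adjusted p = 0.0116). Elobl and E330017A01Rik are similar in sequence to other family members, as are the Fbxw genes, and the split of reads between such copies is uncertain.

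Genes of the subcortical maternal complex, with other genes of maternal effect, were nearly all listed and mostly short in KO. Of 25 in the table, 21 had both KO tails and 9 of these were in neither control. Their median mean KO tail was 31.4 nt, against 42.6 nt for all 636 genes, and their median FGO tail was 68.1 nt, against 59.1 nt. Both KO tails were below FGO in 16 of the 21 and above it in 2, and 14 had a mean KO tail under 40 nt. Over all 626 genes with both KO tails and an FGO tail, 375 were below FGO and 157 above it. A mean KO tail under 40 nt was seen in 284 of all 636 genes. In mRNA 7 of 21 rose and 0 fell, a share near that of all tested genes with both KO tails, of which 174 of 623 rose (27.9%), with 10 higher and 1 lower at an unadjusted p below 0.05.

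Khdc3 (FILIA), a member of this complex, had 23.7 and 24.2 nt in KO and 87.4 nt in FGO. Its mRNA rose to 964 and 845 FPKM in KO, against 26.9 and 18.3 FPKM in Het (log2 difference 5.29 ± 0.31, limma adjusted p = 0.000173). Ooep, its partner, had 25.3 and 27.2 nt in KO and 66.6 nt in FGO, and its mRNA measured 631 and 607 FPKM in KO and 815 and 653 FPKM in Het (limma adjusted p = 0.598). The 2 partners thus had similar KO tails and different mRNA values. Nlrp5 (MATER) had 23.2 and 39.7 nt in KO and 35.5 nt in FGO and rose in mRNA (log2 difference 1.54 ± 0.30, limma adjusted p = 0.00932). Tle6 had 25.7 and 23.8 nt in KO against 41.2 nt in Het and rose in mRNA (2.06 ± 0.40, limma adjusted p = 0.00880). Padi6, which is needed for the cytoplasmic lattices, had 26.2 and 26.1 nt in KO against 62.3 nt in Het, with no mRNA change past the threshold (limma adjusted p = 0.293). Npm2, the oocyte nucleoplasmin, had 25.4 and 25.0 nt in KO and 86.4 nt in FGO, and its footprints measured 27.2, 88.4 and 44.4 FPKM in KO and 171, 472 and 140 FPKM in Het (limma adjusted p = 0.123). Dppa3 (STELLA), which protects maternal DNA methylation, was among the 31 shorter genes, with 45.7 and 47.4 nt in KO against 58.6 nt in Het and 62.8 nt in WT.

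**Figure D4:**
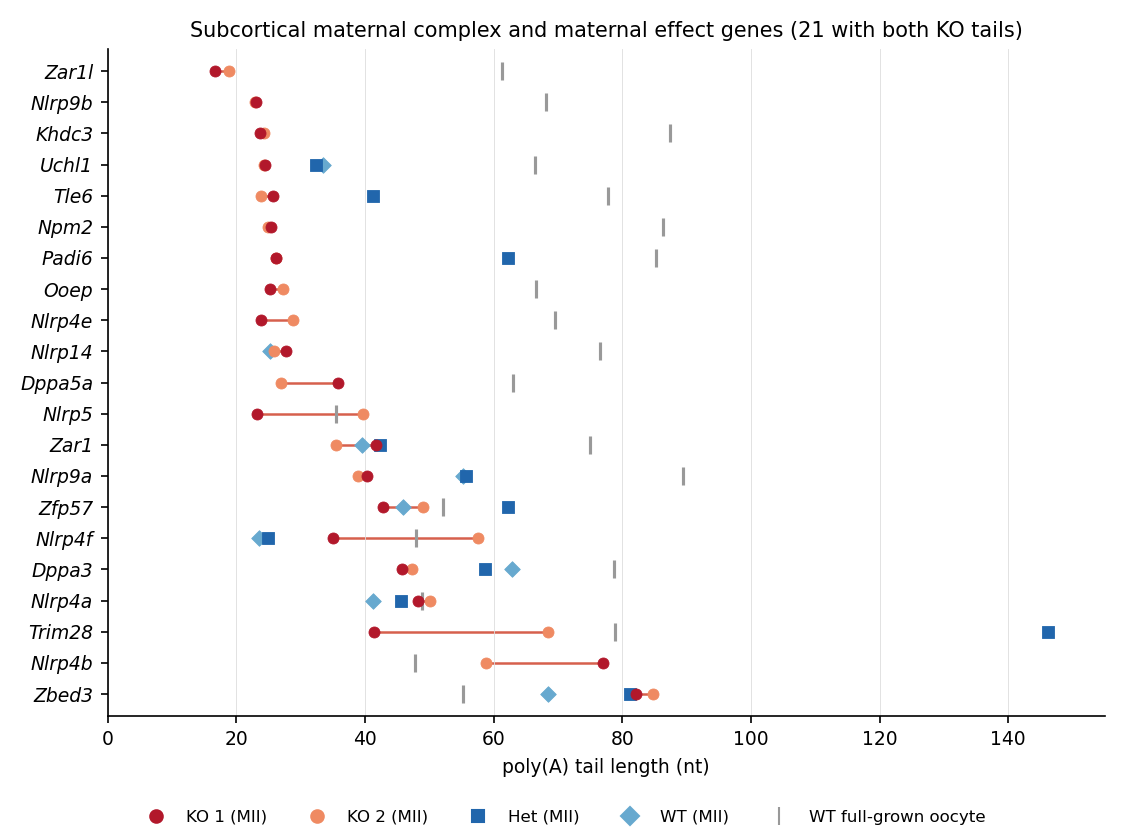
Tail length (nt) of the 21 maternal-effect genes with both KO values, ordered by mean KO tail; each symbol is 1 library (KO 1, KO 2, Het, WT, and a tick for WT full-grown oocytes), and a line joins the KO libraries. For 16 of the 21 genes both KO symbols lie left of the tick, as in Khdc3 with 23.7 and 24.2 nt in KO and 87.4 nt in FGO. Over all 626 genes with both KO tails and an FGO tail, both KO tails were below FGO in 375.

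Of 24 zona pellucida and oocyte growth genes, 13 were listed in both KO libraries and 6 of the 13 in neither control. Their median mean KO tail was 39.7 nt, against 42.6 nt for all 636 genes. Their median FGO tail was 61.7 nt, against 59.1 nt. A mean KO tail under 40 nt was seen in 7 of the 13, against 284 of all 636. It was 80 nt or more in 2 of the 13, against 82 of all 636. These 2 were H1foo (156 and 140 nt in KO) and Oosp1 (97.2 and 128 nt in KO). In mRNA 7 of 13 rose, against 27.9% of the tested genes with both KO tails and 18.9% of all genes. Zp3, a zona pellucida protein, had 32.8 and 31.4 nt in KO against 45.9 nt in Het. Its mRNA rose to 858 and 924 FPKM in KO, against 66.1 and 103 FPKM in Het (log2 difference 3.42 ± 0.32, limma adjusted p = 0.000573). Zp2 had 26.1 and 29.3 nt in KO and mRNA higher by 2.84 ± 0.31 (limma adjusted p = 0.000940). Zp1 had 22.2 and 29.5 nt in KO against 54.5 nt in Het and mRNA higher by 1.60 ± 0.30 (limma adjusted p = 0.00774), a call lost without KO library 2. The oocyte transcription factors Nobox and Lhx8 rose as well, and the KO tails of Nobox, 21.4 and 58.0 nt, were far apart.

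Among maternal mRNAs known to be translated more at maturation, those listed in both KO libraries mostly had long KO tails. Of 33 such genes, Btg4 among them, 22 had a tail in any MII library. Both KO tails were given for 11, and only 1 of these 11 lacked a control value. Their median mean KO tail was 86.2 nt and their median FGO tail 43.7 nt. Both KO tails were above FGO in 9 of the 11, against 157 of all 626 genes with both KO tails and an FGO tail. Of 10 with a Het value, 5 were longer in KO, and of 8 with a WT value, 6 were longer in KO. Ccnb1, the cyclin of the meiotic kinase, had 126 and 149 nt in KO, 132 nt in Het, 40.4 nt in WT and 45.5 nt in FGO. Mos, the kinase that holds the MII arrest, had 89.9 and 88.3 nt in KO, 128 nt in Het, 73.6 nt in WT and 47.0 nt in FGO. Plat, the tissue plasminogen activator, had 127 and 215 nt in KO, 93.7 nt in Het and 33.9 nt in FGO. Tcl1, from a family of similar oocyte genes, had 340 and 88.9 nt in KO, 185 nt in Het, 103 nt in WT and 41.7 nt in FGO. In Ccnb1, Mos and Tcl1 the KO values overlapped the controls, and the KO pair of Tcl1 spanned both of them. In Plat both KO values exceeded the Het value.

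In mRNA, limma called 0 of these 11 genes in either direction, with 0 higher and 2 lower at an unadjusted p below 0.05. In footprints 0 rose and 2 fell, with the same counts at an unadjusted p below 0.05. Over all 610 tested genes with both KO tails, 34 rose and 11 fell in footprints. The 2 maturation genes that fell were Btg4, which is the gene knocked out, and Ccno. Ccno and Aurka were the 2 of the 11 with both KO tails below FGO. Aurka, a kinase of the meiotic spindle, had 52.3 and 58.7 nt in KO. In Tet3 and Bcl2l10 both KO tails were above FGO and below both controls. Ccno (cyclin O) had the shortest KO tails of the 11, with 22.7 and 22.6 nt in KO against 45.0 nt in Het and 63.6 nt in FGO. Its footprints fell to 24.0, 30.2 and 16.3 FPKM in KO, against 125, 232 and 125 FPKM in Het (log2 difference -2.70 ± 0.44, limma adjusted p = 0.0269).

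Factors of the deadenylation and decapping machinery were read next. Of 37 CCR4-NOT, BTG/TOB, PAN and decapping factors 3 had both KO tails, which were Btg4, Edc4 and Cnot3. Over all 20603 genes named in the tail data 636 had both, and 6443 had a tail in any oocyte library. Cnot3, a subunit of CCR4-NOT, had 111 and 96.2 nt in KO against 71.1 nt in Het, and its footprints rose to 178, 167 and 199 FPKM in KO, against 53.4, 59.1 and 39.5 FPKM in Het (log2 difference 1.84 ± 0.33, limma adjusted p = 0.0360, and just over the threshold with the replicate number as a block). Of 43 cytoplasmic polyadenylation, poly(A)-binding and storage factors 12 had both KO tails, 6 of them in KO alone. Of the 12, 6 rose in mRNA, against 27.9% of the tested genes with both KO tails. Pabpn1l, a poly(A)-binding protein of the oocyte that works with BTG4, had 105 and 108 nt in KO against 64.1 nt in Het and 34.5 nt in FGO. Its mRNA rose to 1287 and 1327 FPKM in KO, against 359 and 691 FPKM in Het (log2 difference 1.39 ± 0.37, limma adjusted p = 0.0311), and its footprints rose by 2.55 ± 0.49 (limma adjusted p = 0.0447). The mRNA call was lost without either KO library or without Het library 1. Pabpc1l, the embryonic poly(A)-binding protein, had 28.3 and 24.7 nt in KO and 74.4 nt in FGO and rose in mRNA (2.28 ± 0.54, limma adjusted p = 0.0203).

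Other gene groups were read in the same way, and their mRNA counts stand against the 27.9% that rose among tested genes with both KO tails. Of 114 ubiquitin-conjugating and F-box genes 19 had both KO tails, with a median of 35.3 nt, and 8 rose in mRNA. Fbxw15, of the oocyte Fbxw cluster, had 23.5 and 21.0 nt in KO and 69.9 nt in FGO. Its mRNA rose to 920 and 1190 FPKM in KO, against 132 and 171 FPKM in Het (limma adjusted p = 0.000940). Its footprints overlapped between KO and Het (limma adjusted p = 0.611). Of 11 meiotic and spindle genes with both KO tails, only Birc5 (survivin) rose in mRNA, with KO tails of 22.0 and 24.4 nt and a log2 difference of 2.02 ± 0.29 (limma adjusted p = 0.00288). Of 12 translation factors 6 rose in mRNA, among them the elongation factor Eef1a1, with 31.2 and 20.1 nt in KO. Of 8 nuclear-encoded respiratory chain genes 5 rose, among them Ndufc2, with 18.0 and 22.9 nt in KO and 80.2 nt in FGO. Over the whole respiratory chain list, with or without tails, 55 of 81 tested genes rose in mRNA, against 18.9% of all genes tested. This was not particular to that list. Over the whole lists, 57 of 84 cytosolic ribosomal protein, 39 of 73 mitochondrial ribosomal protein and 21 of 33 proteasome genes rose as well. In the list of maturation genes 0 of 33 rose. Cytosolic ribosomal protein genes had both KO tails in 2 of 90 cases, mitochondrial ribosomal protein genes in 0 of 77, and the 13 mitochondrially encoded mRNAs were at 0 in every tail library.

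Across all 636 genes, KO tail length was set beside the mRNA and footprint differences. Whether tail length affects how much of an mRNA the libraries of polyadenylated RNA capture was not tested. Genes were grouped by mean KO tail at limits of 30, 40, 60 and 80 nt, which were chosen after the values were seen. From the shortest to the longest group, the median mRNA log2 difference was 1.21, 0.81, 0.27, -0.01 and -0.49. The median footprint log2 difference was -0.81, -0.08, 0.16, 0.48 and -0.08, which is not a steady order. The difference of the 2, footprints minus mRNA, had medians of -2.10, -1.03, -0.27, 0.33 and 0.44, against 0.24 over 7382 genes with both readouts. It contains the mRNA difference with its sign reversed, so its order is not separate from that of the mRNA medians.

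Under 30 nt, 62 of 131 genes rose in mRNA, while in footprints 0 of 126 rose and 7 fell, with 7 higher and 27 lower at an unadjusted p below 0.05. At 80 nt or more, 9 of 80 genes rose in mRNA, and 8 rose and 2 fell in footprints. Among genes listed in KO alone the mRNA shares were close, with 54 of 104 under 30 nt (51.9%) and 8 of 17 at 80 nt or more (47.1%). Among genes also listed in a control they were 8 of 27 (29.6%) and 1 of 63 (1.59%). The order of footprints minus mRNA was kept among genes listed in KO alone up to 80 nt (-2.09, -0.99, -0.30 and 0.83, then 0.78 in the 17 genes of the longest group) and among genes also listed in a control (-2.10, -1.25, -0.18, 0.26 and 0.37). The FGO tails ran the other way, with medians of 64.8, 61.6, 57.8, 52.4 and 52.9 nt from the shortest to the longest KO group.

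As rank correlations across genes, mean KO tail length had a Spearman rho of -0.479 with the mRNA difference (623 genes), 0.254 with the footprint difference and 0.551 with footprints minus mRNA (610 genes each). Footprints minus mRNA contains the mRNA difference with its sign reversed, so its rho is not separate from that of mRNA. The rho with the mRNA difference was -0.186 among the 335 genes listed in KO alone (Pearson's r -0.084). It was -0.576 among the 288 also listed in a control. The value over all of them thus joins sets that differ in tails and in levels. KO tail length had 0.096 with the KO mRNA level and -0.344 with the FGO tail. These describe genes measured in shared libraries, and genes are not independent replicates. The Het tail had a rho of -0.510 with the mRNA difference over 584 genes. The tail difference between KO and Het had a rho of -0.123 with the mRNA difference, 0.340 with the footprint difference and 0.396 with footprints minus mRNA, over 265 genes.

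**Figure D5:**
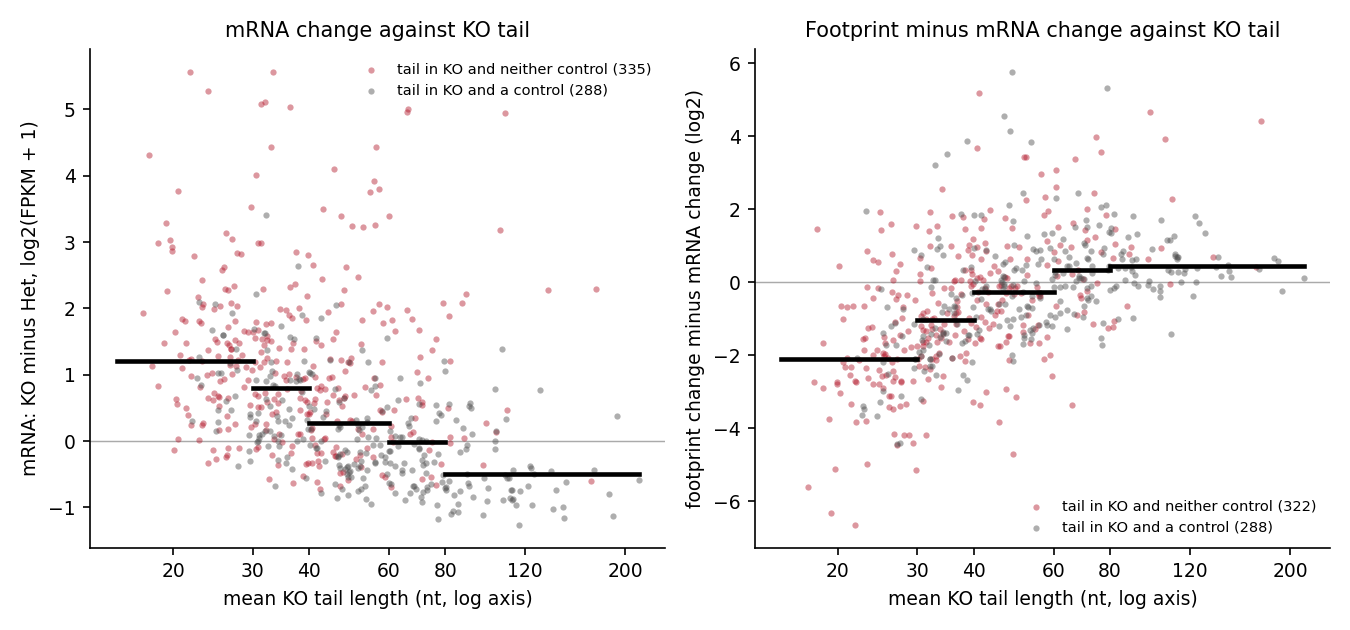
Log2 difference in mRNA between KO and Het (left) and the footprint difference minus the mRNA difference (right), on the log2(FPKM + 1) scale, against mean KO tail length (nt, log axis); each point is 1 gene and black lines mark the medians of the 5 tail groups. The mRNA medians run between 1.21 under 30 nt and -0.49 at 80 nt or more, and those of footprints minus mRNA between -2.10 and 0.44. The right panel contains the mRNA difference of the left panel with its sign reversed.

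The authors' deposited table also holds merged KO and merged control tails. Its merged KO column has a value for 551 genes that neither KO library lists, and its merged control column for 236 genes that neither control lists. Of the 341 genes with a tail in KO alone, 49 have a merged control value in the authors' deposited table, which leaves 292 without any control value. Over the 669 genes with both merged values in the authors' deposited table, the KO value is longer in 334 and shorter in 335, and the median difference is -0.02 nt.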

How the data were processed

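Tail lengths, in nucleotides per gene, were deposited by the authors in 1 table, where 0 was read as no value. The sources used here do not give how molecules were called, how many were required or how a gene's value was summarised, and the depth of the tail libraries is unknown. Per the labels' protocols, total RNA was end-extended, reverse transcribed, amplified and sequenced on a PacBio Sequel II. The authors deposited FPKM for the mRNA (polyadenylated RNA, Smart-seq2) and footprint libraries. The submitters' processing notes name STAR 2.5.3a, Bowtie2 2.2.2, Cufflinks 2.2.1, Trim Galore 0.4.2 and cutadapt 1.14, with the builds hg19 and mm9, without roles. No coordinates were used. The libraries listed 7959 to 9151 genes (mRNA) and 5899 to 8398 genes (footprints) at 1 FPKM or more.

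Of 6443 tail genes, 6316 were matched to the 20756 FPKM genes by symbol and 24 by synonym, and 103 were not. Among the Btg4 FPKM, 231 exact repeats were dropped, and 4 columns of the authors' averages were not used. On log2(FPKM + 1), KO was compared with Het in R 4.3.3 with limma 3.58.1 (eBayes with a trend, two-sided), keeping genes that averaged 1 FPKM or more. Tail lengths were fitted the same way in nucleotides, with KO, Het and WT as 3 groups. P-values were Benjamini-Hochberg adjusted over all genes tested, with 0.05 as the threshold. The scripts were tested on simulated data. Python 3.11.15, pandas 2.3.3, numpy 2.4.6 and matplotlib 3.10.9 did the rest.

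The labels give KO and Het libraries the same replicate numbers. In footprints the deviations from the genotype means correlated between same-numbered libraries at 0.255, 0.422 and 0.162, so the numbers were taken to pair them. The adjusted p-values and counts in the results come from fits that left this pairing out, unless a block is named. A block on the number was run as an alternative.

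The gene set, the lists and the rules were chosen with earlier results of these data known. Named genes are Btg4, the 15 genes with values in all 4 MII libraries furthest above both controls and the 8 furthest below, and, among genes with KO tails alone, the 10 longest, 5 shortest and 10 with the highest KO mRNA. Examples of gene groups, genes called in 1 group and genes at the edge of a group were named after their values were seen.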

Additional observations from a re-analysis of the deposited data

How the results depend on the processing

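In limma's tail fits 0 genes were called with log2 lengths, shifted libraries, tails under 20 nt removed, only the 131 genes, or Het and WT as 1 control group (16 longer and 43 shorter at an unadjusted p below 0.05). The median tail difference between KO and Het was -7.94 to -7.73 nt without 1 KO library and -3.70 nt over the 131 genes with all values, and KO minus WT kept its direction in every setting run. Genes longer than both controls numbered 57 to 59 without 1 KO library and 24 with a gap of at least 10 nt, and shorter ones 41 to 47 and 15. Genes with KO tails alone numbered 531 to 988 with 1 KO library required. In mRNA the counts that rose and fell were 1677 and 55 over all genes. They were 555 and 5 without a filter on low values, 1104 and 698 after quantile normalization, and 1139 to 1621 and 22 to 270 without 1 library. Genes with KO tails alone gave 68 that rose without the filter and 0 to 1 that fell without 1 library. Genes also listed in a control gave 6 that rose without the filter, 5 that fell after quantile normalization and 0 to 28 that fell without 1 library. With the replicate number as a block, mRNA gave 3033 and 1553 over all genes, 223 and 14 with KO tails alone, and 76 and 74 with a control. Same-numbered mRNA libraries correlated at 0.627 in their deviations, but 2 pairs share only a number. In footprints 274 genes rose and 28 fell. With a pseudocount of 0.1 the count that rose was 177, after quantile normalization 149, and without a filter 145 rose and 12 fell. Without 1 library 0 to 260 rose and 0 to 14 fell. Without a filter 12 rose and 1 fell with KO tails alone, and 8 and 4 with a control. Without 1 library these were 0 to 18 and 0 to 1, and 0 to 14 and 0 to 6. The footprint block moved no count by over 1.5 times and, beyond the calls named above, lost only those of Glrx, E330017A01Rik, Gse1, Rab3gap1 and Ska3 among genes with both KO tails. Without the filter the mRNA calls of Pfn1, Uchl1, Gm813, Tdrd12, Polr2d, Lsm3, Elobl, Fbxw19, Nlrp5, Tle6, Zp1, Lhx8, Eef1a1, Pabpn1l and Pabpc1l were lost, as were the footprint calls of Zbed3, Ermp1, Lsp1, Nudc, Eloc, Eef1e1, Ccdc115 and Pabpn1l. With a pseudocount of 0.1 the footprint calls of Zbed3, Nudc, Eloc, Eef1e1, Ccdc115 and Pabpn1l were lost, and after quantile normalization those of Zbed3 and Cnot3 and the mRNA call of Tdrd12. The mRNA calls of Elobl and Fbxw19 were also lost without Het library 1 or either KO library. The all-gene mRNA median changed sign after quantile normalization (0.14 as deposited, -0.22 after), and shifted libraries gave 35 longer and 37 shorter genes, against 37 and 31 as deposited. The causes were not tested. Each control is 1 tail library, so the spread between control oocytes is not measured, and the number of molecules behind a tail is unknown.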
